A study of Rattus norvegicus with 3 samples.

Results

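Hbb, Alas2 and Pf4 are 3 genes usually read as signs of blood in a tissue sample, and their signals were followed over 3 expression arrays of rat brainstem. They were chosen by symbol: each has 1 probe set that carries a single gene symbol in the platform's probe table, so 3 of the 14217 genes named that way are described here. All 3 passed a floor on signal, set at the median over non-control probe sets of the mean log2 signal (7.44), which 9241 genes passed. The study asked how acupuncture bears on genes of the brainstem. It holds 1 array labelled Sham, 1 labelled TBI, for traumatic brain injury, and 1 labelled Hand Acu, called hand acupuncture here, all from rats killed 1 h after modelling, whose brainstem was frozen. According to the design text, tissue of 5 rats was mixed, read here as 1 pool per array. Strain, sex and age, any perfusion before the tissue was taken, and whether the acupuncture rats were also injured are not given in the sources used here.

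With 1 array in each group there is no replicate, so errors between replicates cannot be given and nothing was tested. Each difference is set beside that of all 9241 genes above the floor, as a description of these 3 pools of RNA. Precision is limited by there being 3 arrays. For beta-actin the 3' over 5' ratio, which is higher in more degraded RNA, was 5.58 (sham), 6.37 (TBI) and 6.69 (hand acupuncture). For Gapdh it was 1.25 (sham) and 1.28 (hand acupuncture), with TBI the lowest. Where 3 log2 signals are given in a row without names below, their order is sham, TBI, hand acupuncture. The label brainstem was set beside markers. Of genes that do not tell brain regions apart, 11 of 11 neuron, 10 of 10 oligodendrocyte and 10 of 10 astrocyte genes lay above the floor. Of 12 hindbrain genes 5 did (Hoxa5, Hoxb2, Hoxb3, Slc6a4 and Chat), where 9241 of all 14217 genes did. Slc6a5, Dbh and Phox2a, which mark glycinergic and noradrenergic neurons, lay below it. These counts do not settle the brain region.

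Haemoglobin, the oxygen carrier of red cells, is built from alpha and beta globin chains that each hold a haem group. Red cells of rodents leave the marrow with some RNA left, and globin transcripts make up most of it, so blood left in a tissue adds globin signal to its RNA; globin transcripts have also been found in some brain cells. Alas2 encodes the red cell form of aminolevulinate synthase, the first enzyme of haem synthesis, and its transcription in red cell precursors rises together with that of the globins. Pf4 encodes platelet factor 4 (CXCL4), a chemokine stored in platelet granules; it is also transcribed in macrophages at the borders of the brain. In bulk tissue, fewer cells of a type and less RNA per cell cannot be told apart.

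Hbb lies at chr1:167662310-167663721 of GRCr8 in the RefSeq table, in a row with 4 other beta globin genes (Hbb-bs, Hbb-b1, Hbbl1 and Hbb-b2). Alas2 lies at chrX:22890650-22914046 and Pf4 at chr14:17582477-17583392. Hba-a3, an alpha globin gene at chr10:15816099-15816943, is the other globin gene above the floor with a probe set of its own and is described beside the 3. As background, with their part in the signals not tested, the 250 bases before the start of Hbb and of Hba-a3 are shown from RefSeq (GRCr8, minus strand of both, chr1:167663722-167663971 and chr10:15816944-15817193), 5' to 3', with matches to the motifs named below in capitals:
Hbb: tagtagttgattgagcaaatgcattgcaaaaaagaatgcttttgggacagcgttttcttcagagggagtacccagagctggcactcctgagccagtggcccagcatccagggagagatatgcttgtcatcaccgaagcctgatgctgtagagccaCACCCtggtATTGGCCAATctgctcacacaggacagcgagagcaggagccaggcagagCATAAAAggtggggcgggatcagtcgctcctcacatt
Hba-a3: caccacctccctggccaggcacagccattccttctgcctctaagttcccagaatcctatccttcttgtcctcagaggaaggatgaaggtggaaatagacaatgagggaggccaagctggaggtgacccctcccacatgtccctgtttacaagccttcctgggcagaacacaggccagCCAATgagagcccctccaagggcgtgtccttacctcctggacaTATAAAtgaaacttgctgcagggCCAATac
Both strands were searched. The CCAAT box was searched by its letters, as was the CACCC motif of Krueppel-like factors. A TATA box was taken as TATAAA. The variant CATAAAA was counted with it. The motif of GATA factors was searched as AGATAA or AGATAG, and with T in place of the first base. The Hbb stretch held CACCC 95 to 91 bases before the start, CCAAT on both strands side by side between 86 and 77 bases, and CATAAAA 37 to 31 bases before the start. The Hba-a3 stretch held CCAAT at 73 to 69 and at 7 to 3 bases and TATAAA at 30 to 25 bases before the start, with no CACCC. No GATA motif was in either stretch, which says only that those letters are not in these windows. Of 33469 such windows in the RefSeq table, 34.0% held CCAAT, 49.2% CACCC, 16.1% a TATA form and 27.0% a GATA motif. The window given there for Alas2 begins 4550 bases inside the annotated span of the gene, so it is not shown as its promoter.

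All 3 genes had their highest signal on the TBI array. On the hand acupuncture array Hbb and Alas2 lay near their sham signal, whereas Pf4 lay above it. TBI was the highest of the 3 arrays for 33.4% of the 9241 genes, so this order by itself is common.

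Hbb, the beta globin chain, had a log2 signal of 13.46 in sham, 13.79 in TBI and 13.39 in hand acupuncture. The TBI array was thus apart from the other arrays, which lay within 0.07 of each other. The log2 difference was 0.33 for TBI minus sham (1.26-fold), -0.40 from TBI to hand acupuncture (1.32-fold lower) and -0.07 from sham to hand acupuncture. The SD of the log2 difference over the 924 genes in the same band of mean signal (genes above the floor were cut into 10 equal bands) was 0.12, 0.09 and 0.11 in that order. Among the 100 genes with the highest mean signal, no other gene was as far up from sham to TBI, nor as far down from TBI to hand acupuncture. Those 100 genes drifted the same way as a whole: their median log2 difference was 0.09 for TBI minus sham and -0.06 for hand acupuncture minus TBI, so that Hbb stood 0.24 above and 0.34 below them. With quantile normalization, which evens out such drift, the Hbb difference for TBI minus sham was 0.23, under the 1.2-fold used below to count genes as apart, and that for hand acupuncture minus TBI was -0.34, past it.

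Alas2, the haem enzyme, had log2 signals of 7.78 (sham), 8.10 (TBI) and 7.84 (hand acupuncture). Its order was that of Hbb from sham to TBI, and the sham and hand acupuncture arrays differed by 0.06. Its log2 differences were 0.32 for TBI minus sham (1.25-fold) and -0.26 for hand acupuncture minus TBI, just past 1.2-fold. In its band of mean signal the SD was 0.29 and 0.28, and 109 of 925 genes there were at least as far above the sham array on the TBI array. The Alas2 differences are therefore of the size that many dim genes showed. With an offset of 50 added to the signal before the log, the difference for hand acupuncture minus TBI was -0.22, under 1.2-fold.

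Pf4, the platelet chemokine, had log2 signals of 7.89 (sham), 8.41 (TBI) and 8.26 (hand acupuncture). The sham array was the low one here, and the other arrays lay within 0.14 of each other. Its log2 differences were 0.51 for TBI minus sham (1.43-fold), -0.14 from TBI to hand acupuncture and 0.37 from sham to hand acupuncture (1.29-fold). The SD in its band of mean signal was 0.26 for TBI minus sham, where 34 of 924 genes were at least as far above sham, and 0.26 for hand acupuncture minus sham, where 67 were. TBI minus sham and hand acupuncture minus sham subtract the same sham array, so a low Pf4 reading on that array alone would appear in both.

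**Figure D1:**
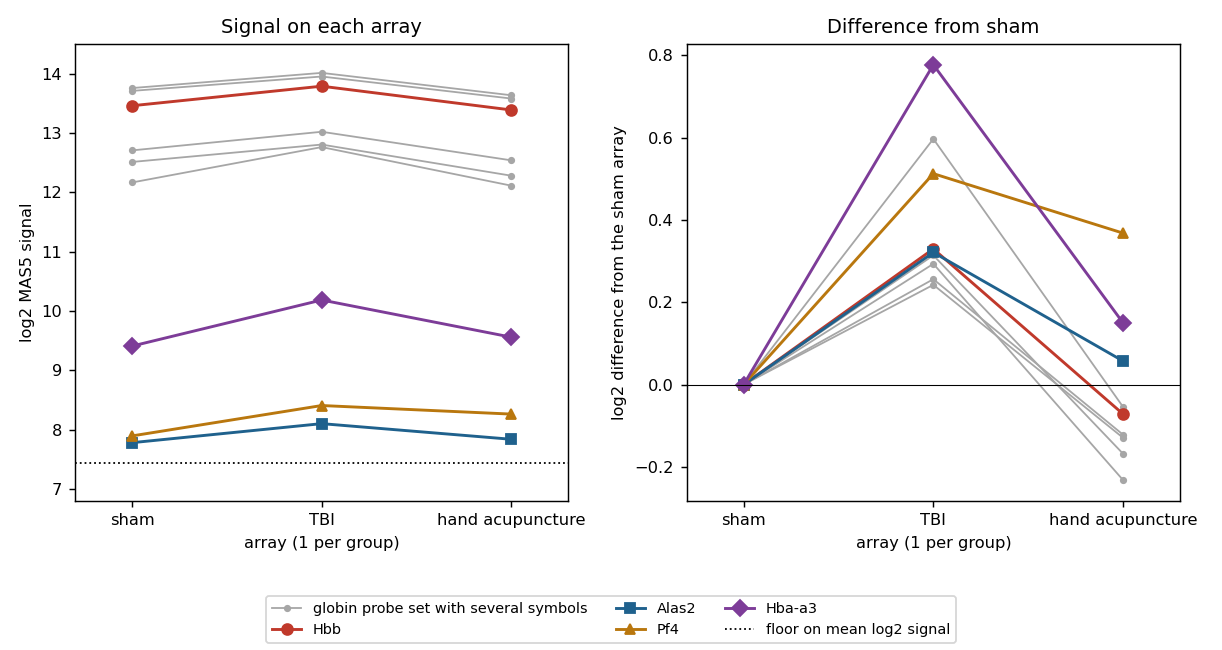
Log2 MAS5 signal (left) and log2 difference from the sham array (right) by group (sham, TBI, hand acupuncture; 1 array each) for Hbb, Alas2, Pf4, Hba-a3 and 5 globin probe sets with several gene symbols; the dotted line is the floor of 7.44. Every line peaks at TBI, and at hand acupuncture Pf4 is the one still 0.37 above sham while the others lie between -0.23 and 0.15.

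Genes were counted as apart at 1.2-fold or more, a log2 difference of 0.26. For TBI minus sham, 3 of 3 genes were higher by that much, where 7.68% of all genes were. None was lower by that much, where 8.15% of all genes were. For hand acupuncture minus TBI, 2 of 3 (Hbb and Alas2) were lower by that much, where 6.49% of all genes were, and none was higher (6.38%). In hand acupuncture minus sham, 1 of 3 (Pf4) was higher, where 8.16% of all genes were, and none was lower (8.39%). At 1.5-fold in either direction the count was 0 of 3 in each comparison, where the share of all genes that far apart was 1.55% in TBI against sham, 1.21% in hand acupuncture against TBI and 1.89% in hand acupuncture against sham. The symbols were chosen with these values known, so the counts describe them and do not set them apart from other genes. The TBI array stood 1.2-fold above both other arrays for Hbb and Alas2, as it did for 201 of 9241 genes.

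**Figure D2:**
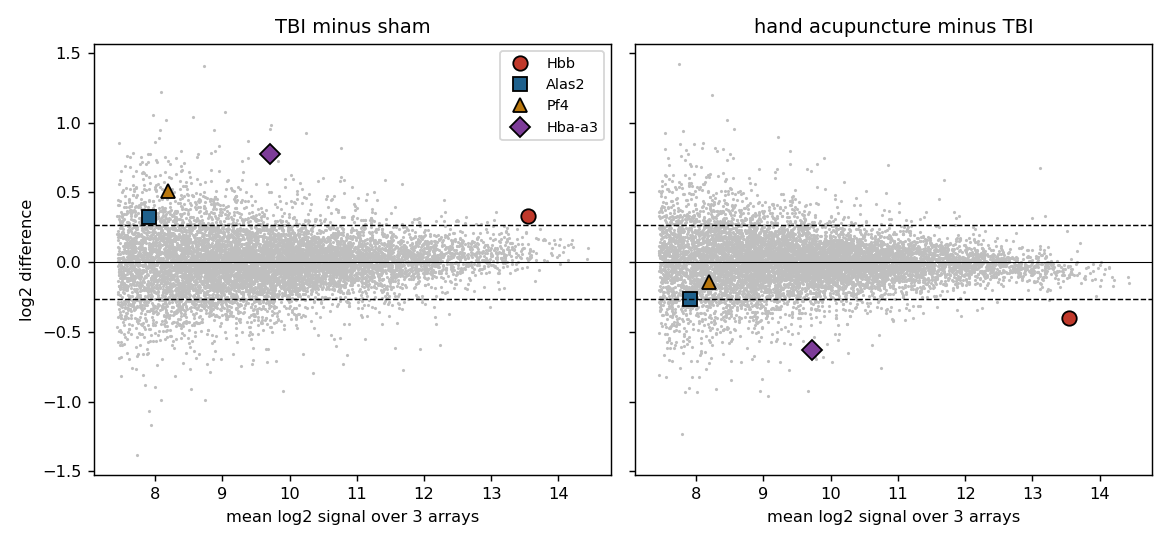
Log2 difference against mean log2 signal over the 3 arrays for the 9241 genes above the floor (grey points) for TBI minus sham (left) and hand acupuncture minus TBI (right), with 1.2-fold as dashed lines. Hbb at 0.33 and -0.40 lies at the edge of the narrow cloud of bright genes, while Alas2 and Pf4 lie in the wide cloud of dim genes.

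The other globin probe sets above the floor also had their highest signal on the TBI array. Hba-a3 had log2 signals of 9.41, 10.18 and 9.56, so the TBI array was again the high one. Its difference was 0.78 for TBI minus sham (1.71-fold) and -0.63 for hand acupuncture minus TBI (1.54-fold lower), each past 1.5-fold. For TBI minus sham 22 of 9241 genes, Hba-a3 included, were at least as high, and for hand acupuncture minus TBI 43 were at least as low. A further 6 probe sets carry 2 globin symbols each and cannot be given to 1 gene; 5 of them lay above the floor, 3 with alpha and 2 with beta globin symbols. The alpha globin probe sets read 13.71, 13.95 and 13.58, then 13.76, 14.01 and 13.64, then 12.71, 13.02 and 12.54 in log2 signal. The beta globin probe sets read 12.17, 12.76 and 12.11, then 12.51, 12.80 and 12.28. In all 5 the TBI array was the highest and the hand acupuncture array the lowest. Their differences were 0.24 to 0.60 for TBI minus sham, with 3 of 5 past 1.2-fold, -0.65 to -0.37 for hand acupuncture minus TBI, with 5 of 5 past it, and -0.23 to -0.05 for hand acupuncture minus sham, with 0 of 5. All 15 signs held under quantile normalization, median centring and the offset. With quantile normalization, though, 1 of 5 rather than 3 of 5 was past 1.2-fold for TBI minus sham (0.12 to 0.55), while 5 of 5 stayed past it from TBI to hand acupuncture. These probe sets are not independent readings: the copies within each globin family are near-identical in sequence, and probes may bind more than 1 of them, as the suffix x_at of the Hbb probe set also warns. The embryonic globins, made by the first red cells of the embryo, lay below the floor and had no common order. Hbe1 read 3.28, 3.96 and 3.71, and Hbe2 read 3.75, 5.64 and 5.76. Hbg1 was highest in sham, at 3.78, 2.53 and 2.05, and Hbz read 2.26, 2.48 and 2.62.

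The other red cell genes did not share the TBI peak as a list. Of 34 listed genes 25 had a probe set of their own and 9 lay above the floor. For TBI minus sham 1 of 9 was at least 1.2-fold higher and 1 lower, where 7.68% and 8.15% of all genes were. The median log2 difference was -0.15, against 0.00 over all genes. Tal1, a transcription factor of blood precursors and vessels, read 8.34, 8.78 and 8.87. Sptb, the beta spectrin of the red cell membrane skeleton, read 9.08, 8.77 and 8.61, with sham the highest. Like Tal1 and Sptb, the other 7 are also active in other cells. They were Tfrc, the transferrin receptor, Bpgm, which makes the red cell metabolite 2,3-bisphosphoglycerate, Mkrn1, Dmtn, Xk and the mitochondrial carriers Slc25a38 and Abcb10. They differed by -0.18 to 0.15. For hand acupuncture minus TBI 0 of 9 were past 1.2-fold either way, with a median of 0.03. Over all genes 6.38% were higher and 6.49% lower by that much.

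Genes more particular to red cells lay among the 16 below the floor, where readings are erratic. Slc4a1, the anion exchanger band 3 of the red cell membrane, read 5.75, 6.33 and 5.66, and its other probe set 5.28, 5.77 and 5.33. Klf1 and Gata1, which switch on globin genes in precursors, read 3.13, 4.71 and 4.73, and 4.01, 5.47 and 5.24. Ahsp, the chaperone of alpha globin, read 4.65, 4.33 and 3.91, and Epb42, Rhag, Kel, Hemgn and Nfe2 were also below the floor. Of these 16 genes 7 were highest on the TBI array (Slc4a1, Rhd, Gata1, Nfe2, Hemgn, Car1 and Add2). That array was the highest for 33.4% of genes above the floor, and the share below the floor was not worked out. The count is therefore not read as a TBI peak of red cell genes.

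Of 8 listed haem synthesis enzymes other than Alas2, 7 had a probe set of their own and 5 lay above the floor. In the 3 comparisons 0 of 5 were past 1.2-fold. Of all genes, 7.68% were higher and 8.15% lower by that much for TBI minus sham. The shares were 6.38% and 6.49% for hand acupuncture minus TBI, and 8.16% and 8.39% for hand acupuncture minus sham. At such shares a count of 0 among 5 genes is not particular to this pathway. Alas1, the form of aminolevulinate synthase used outside red cells, read 9.63, 9.57 and 9.45, and Fech, which puts iron into haem, read 9.68, 9.66 and 9.57. Of 6 genes for clearing haemoglobin and haem above the floor, 0 were past 1.2-fold for TBI minus sham. Over all genes 7.68% were higher and 8.15% lower by that much. Hmox1, the inducible haem oxygenase, read 7.70, 7.71 and 7.19, so the hand acupuncture array was the low one. Blvra, a biliverdin reductase, read 8.73, 8.88 and 9.17. The scavenger genes Hp, Hpx and Cd163 lay below the floor.

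Few other platelet genes lay above the floor, so the label platelet could hardly be checked for Pf4. Of 30 other platelet genes 24 had a probe set of their own and 18 of those lay below the floor, among them Ppbp, which lies beside Pf4 on the chromosome and encodes another platelet chemokine, at 4.05, 3.63 and 4.77. Some of the 18 were low in sham, as Pf4 was. Itga2b, the platelet integrin chain, was 0.78 above sham on the TBI array and 0.73 above it on the hand acupuncture array. Gfi1b, a transcription factor of megakaryocytes and red cell precursors, read 4.25, 5.48 and 5.30, and P2rx1, an ATP receptor of platelets, 5.33, 6.06 and 5.87. Others were not: Gp5 read 5.73, 5.24 and 5.76, and Clec1b 4.79, 4.31 and 4.96. Gp9, Itgb3, Treml1, Tubb1 and Selp also lay below the floor. The 6 above it were P2ry12, Cavin2, F5, Rasgrp2, Nrgn and Rab27b, of which P2ry12 was also on the microglia list and Nrgn is abundant in neurons. For TBI minus sham 1 of the 6 was at least 1.2-fold higher (P2ry12, 9.92 against 10.43, whose other probe set differed by -0.02). Another was lower (Cavin2, 8.59 against 8.26), and the median was 0.02. Over all genes 7.68% were higher and 8.15% lower by that much. For hand acupuncture minus sham 0 of 6 were past 1.2-fold either way, where 8.16% of all genes were higher and 8.39% lower. Without a floor, 7 of 24 were higher and 2 lower in that comparison. Of all 14217 genes without a floor, 2714 were higher and 2000 lower. The part of platelets in the Pf4 signal was not tested.

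Markers of border macrophages, which can carry Pf4, were read beside it. Of 14 listed genes 11 had a probe set of their own and 4 lay above the floor. For TBI minus sham 2 of 4 were at least 1.2-fold higher, where 7.68% of all genes were, and the median was 0.16. Mrc1, the mannose receptor, read 7.87, 8.18 and 7.99, and Lyve1, a hyaluronan receptor, 7.47, 7.88 and 7.56. Both were highest on the TBI array and less than 1.2-fold above sham on the hand acupuncture array. The other probe set of Lyve1, below the floor, differed by -0.13 for TBI minus sham. The count of 2 became 1 with the offset of 50, 0 with the higher floor (9.25) and 1 when probe sets of a gene were averaged. Dab2 and Maf differed by 0.01 and -0.01 for TBI minus sham, and Cd163, F13a1, Ms4a7, Stab1, Folr2, Clec10a and Ms4a6a were below the floor. The summed signal of the 11 genes was 2638 in sham, 2772 in TBI and 2795 in hand acupuncture. On the microglia list 3 of 10 genes (P2ry12, C1qb and C1qc) were higher by 1.2-fold for TBI minus sham, where 7.68% of all genes were, with a median of 0.08. From TBI to hand acupuncture 4 of 10 were lower by that much (6.49% of all genes), with a median of -0.17. With the offset or with the higher floor the 3 became 1, and the 4 became 3 and 2. The part of these cells in the Pf4 and globin signals was not tested.

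Leukocyte and vessel genes were read for the same reason. Of 15 neutrophil genes with a probe set of their own, 14 lay below the floor, S100a8 and S100a9 included, and the one above it, Anxa1, is also made by other cells. Anxa1 read 8.34, 8.79 and 8.85, so sham was the low array, by 0.45 against TBI and 0.51 against hand acupuncture. Of 5 lymphocyte and monocyte genes above the floor, Plac8 was higher for TBI minus sham (7.30 against 7.96) and Coro1a lower (8.88 against 8.58), while Cd3e, Cd79b, Ms4a1 and Nkg7 were below it. The median of endothelial genes was -0.11, with 0 of 14 at least 1.2-fold higher and 3 lower (Cldn5, Emcn and Ocln). That of pericyte and smooth muscle genes was -0.24, with 0 of 5 higher and 2 lower (Tagln and Vtn). No gene above the floor on these vessel wall lists was 1.2-fold higher for TBI minus sham, where 7.68% of all genes were. Of all genes 8.15% were lower by that much. The part of vessel cells in the globin signal was not tested. The summed signal of the 15 endothelial genes with a probe set of their own was 11269 in sham, 10364 in TBI and 10429 in hand acupuncture.

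Tissue that comes with attached membranes or ventricle lining was also compared. Meninges and fibroblast genes had a median of 0.11 for TBI minus sham, with 1 of 10 at least 1.2-fold higher (Fbln1), and of -0.19 for hand acupuncture minus TBI, with 4 of 10 lower. Choroid plexus genes had medians of 0.05 and -0.24, with 0 of 7 higher and 3 of 7 lower for the same comparisons. Over all genes 7.68% were higher for TBI minus sham and 6.49% lower for hand acupuncture minus TBI by 1.2-fold. TBI was the highest array for 7 of 10 meninges genes and 3 of 7 choroid plexus genes, where it was for 33.4% of all genes above the floor. Their summed signal over genes above the floor was 26144, 27549 and 25053 for meninges and 26183, 27735 and 23481 for choroid plexus, the same order as Hbb. Those sums are carried largely by bright genes. For TBI minus sham Ptgds, a prostaglandin synthase, differed by 0.13 and Ttr, the thyroid hormone carrier transthyretin, by 0.13. Enpp2 differed by -0.00, and the median of the 100 brightest genes was 0.09. For hand acupuncture minus TBI Ptgds differed by -0.17, Ttr by -0.24 and Enpp2 by -0.20, where that median was -0.06. Among brain cell lists, that order was also seen at 68141, 72704 and 67471 for 10 astrocyte genes, of which TBI was highest for 7. So it was at 5564, 6215 and 5490 for 10 microglia genes. Neuron genes (76748.5, 79475.7 and 79471.6) and oligodendrocyte genes (74342.6, 77060.7 and 77334.1) had other orders, with sham the lowest. The part of any of them in the globin signal was not tested.

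The hindbrain markers also differed between the arrays. All 5 above the floor were higher in TBI than in sham, 2 of 5 by 1.2-fold (7.68% of all genes), with a median of 0.25. Hoxa5 and Hoxb3 lay under the floor of 7.44 on the sham array and passed it through the other arrays. For them, being above sham is thus partly set by the floor. Hoxa5, a positional gene of the hindbrain and cord, read 7.35, 8.57 and 8.34, and Slc6a4, the serotonin transporter, 8.16, 8.64 and 8.50. In hand acupuncture 3 of 5 were at least 1.2-fold above sham (8.16% of all genes), with a median of 0.28. Sham was the lowest array for 4 of the 5. The share of all genes with sham lowest was not worked out, so this order does not tie them to Pf4. The 7 markers below the floor had no common order. Glra1 and Slc6a5 were highest in sham, 2 (Phox2a and Gata3) in TBI and the rest in hand acupuncture. The part of the tissue sampled in these signals was not tested.

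**Figure D3:**
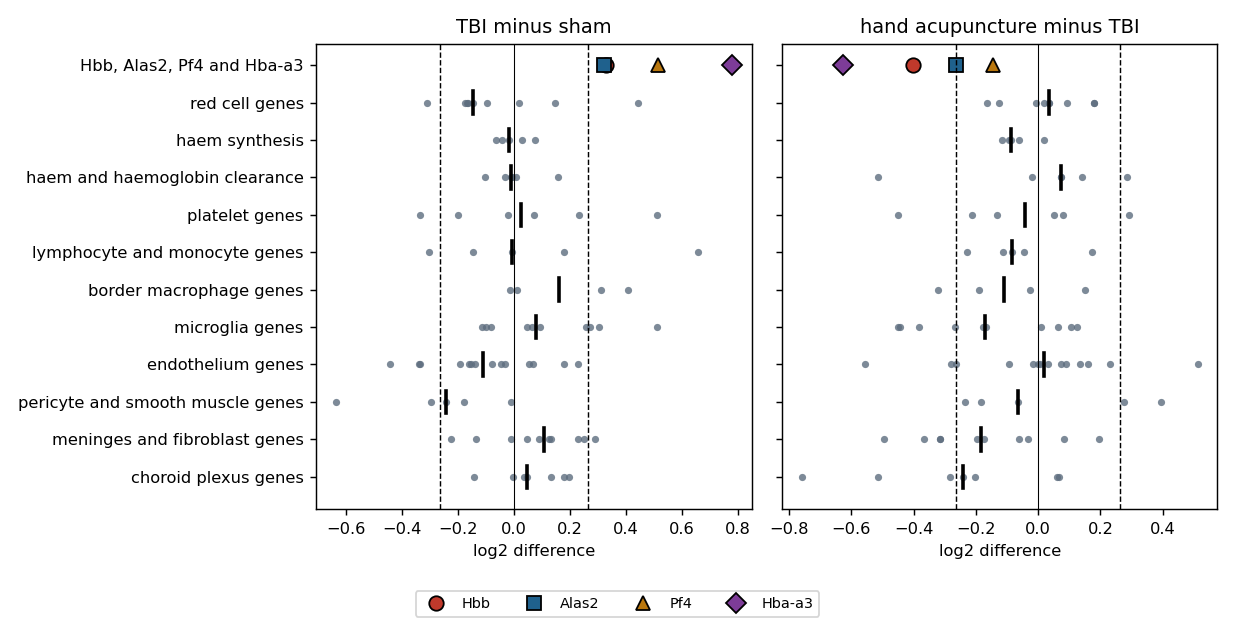
Log2 difference for TBI minus sham (left) and hand acupuncture minus TBI (right) of Hbb, Alas2, Pf4 and Hba-a3 (top line) and of the genes above the floor in 11 lists (points), with list medians as black bars and 1.2-fold as dashed lines. The 4 named genes lie at 0.32 to 0.78 on the left, while the medians of the 11 lists lie between -0.24 and 0.16. Neutrophil (1 gene, 0.45) and hindbrain genes (median 0.25) are not drawn.

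Likeness of profile was measured as the Euclidean distance between 3 log2 signals after each gene's own mean was taken off, so small values mean nearly the same differences over the 3 arrays. Nearest to Hbb were Lhx2, a LIM homeobox gene (0.005), Rbp4, the retinol carrier (0.010), and Slc5a3, a myo-inositol transporter gene (0.010). Nearest to Alas2 were Capns1, a calpain subunit (0.002), Polr2e, an RNA polymerase subunit (0.003), and Cacybp (0.004). Nearest to Pf4 were Rpl39, a ribosomal protein gene (0.004), Tmem132e (0.010) and Rbm22 (0.016). Between the 3 genes the distance was 0.11 for Hbb and Alas2, 0.22 for Alas2 and Pf4 and 0.31 for Hbb and Pf4. Of all genes above the floor, 174 were nearer to Hbb than Alas2 was, and 4151 were nearer to Hbb than Pf4 was. Hba-a3, whose differences were larger, was 0.32 from Hbb, with 4302 genes nearer. Over 3 arrays many genes share any given profile, and the distance says nothing of shared function.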

How the data were processed

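Each array was read as a column for 31099 probe sets. The log2 values are the authors' deposited signals. MAS5, an Affymetrix method that corrects each probe by its mismatch partner, appears without a version in the submitters' processing notes. That the values are log2 and scaled was inferred from them: back on the linear scale, the mean with 2% trimmed at each end was 500.0 on each array. Detection calls were not used, so the floor stands in for them. It is set on the mean of the 3 arrays, so a gene can pass it and lie under it on 1 array. Hoxa5, Hoxb3 and Plac8 did so on sham, and Hmox1 and Prlr on hand acupuncture.

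Of 31042 non-control probe sets, 20826 had 1 symbol in the platform annotation of 2016, 436 had more than 1 and 9780 had no symbol there. A gene is its brightest probe set with 1 symbol. Names of genes followed a rule: the 3 genes, any gene above the floor in the globin, red cell and platelet lists, up to 4 per other list by size of TBI minus sham, 3 nearest profiles per gene, and markers below the floor. Genes named outside it, such as Fech and Hmox1, were picked after their values were seen. The 3 genes, the 18 lists and the 1.2-fold threshold were chosen with earlier results of these data known.

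Alternatives were quantile normalization, median centring, an offset of 50, other floors, other probe set rules and 1.5-fold. Counting was tested on simulated data. Python 3.11.15, numpy 2.4.6, pandas 2.3.3 and matplotlib 3.10.9 were used.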

Additional observations from a re-analysis of the deposited data

How the results depend on the processing

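For Hbb, Alas2 and Pf4 the 9 log2 differences kept their sign under quantile normalization, median centring and the offset of 50, and moved by at most 0.10. The mean of all probe sets and the dimmest probe set gave the same values, since each gene has 1 probe set. Of the values past 1.2-fold, Hbb for TBI minus sham was under it with quantile normalization (0.23) and Alas2 for hand acupuncture minus TBI with the offset (-0.22). No paired analysis was possible because each group has 1 array.

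List counts moved more. In the order TBI minus sham, hand acupuncture minus TBI and hand acupuncture minus sham, globin chains and red cell genes together had 2, 0 and 1 genes at least 1.2-fold higher and 1, 1 and 1 lower. Dropping the floor made these 14, 6 and 13 higher and 6, 6 and 4 lower. With the higher floor (9.25) there were 1 higher and 0 lower for TBI minus sham and 0 and 0 for hand acupuncture minus sham; with the mean of all probe sets 1 higher and 0 lower for TBI minus sham and 0 higher for hand acupuncture minus sham; at 1.5-fold 1 and 0, and 0 and 0. Platelet genes had 1, 1 and 0 higher and 1, 1 and 0 lower, and without a floor 7, 6 and 7 higher and 7, 4 and 2 lower. With the mean of all probe sets the platelet counts were 0 higher for TBI minus sham and 0 lower for hand acupuncture minus TBI, with the offset 0 higher for the latter, with the higher floor 0 lower and 0 higher in that order, and at 1.5-fold 0 each way in both.

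Over all genes, 710, 590 and 754 were at least 1.2-fold higher. Without a floor they were 2376, 2428 and 2714, with the higher floor 224, 143 and 228, and at 1.5-fold 80, 57 and 92. The 753, 600 and 775 lower genes became 2227, 1876 and 2000 without a floor, 228, 153 and 236 with the higher floor, and 63, 55 and 83 at 1.5-fold. Signal near background limits Alas2 and Pf4, whose mean log2 signals lay 0.47 and 0.75 above the floor, and the red cell and platelet genes below it.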
